A study of Homo sapiens with 10 samples.

Results

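The genes described here are those that cells switch on in response to the kinase ERK and whose products then restrain the same pathway. The list named 10 of them: DUSP1, DUSP4, DUSP5, DUSP6, SPRY1, SPRY2, SPRY4, SPRED1, SPRED2 and ERRFI1. They were taken by symbol, and 7 of the 10 had a named probe set, 8 probe sets in all, among 14884 named genes on the array. SPRY1, SPRED1 and SPRED2 were not analysed here. The RNA came from MCF10A, a human mammary epithelial cell line that grows without limit but forms no tumours, on 5 arrays of parental cells (H2A.X WT) and 5 arrays of H2A.X knockout cells. H2A.X is the histone variant that is phosphorylated around DNA breaks, and the study asked how its loss relates to epithelial-mesenchymal transition. Both groups grew for 48 h in the same DMEM/F12 medium with 5% horse serum, 20 ng/ml EGF, 500 ng/ml hydrocortisone, 100 ng/ml cholera toxin and 10 μg/ml insulin, with penicillin and streptomycin. EGF drives ERK in these cells, hydrocortisone acts on the glucocorticoid receptor and cholera toxin raises cAMP, so all 3 inputs were shared by the controls. The labels do not say whether the knockout cells were 1 clone, or whether samples of a group were separate cultures, so each p-value reflects the scatter of these arrays alone, and that scatter may be technical.

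ERK is the last kinase of the cascade that runs from growth factor receptors through RAS, RAF and MEK, and its output is held in check by proteins that it induces. Dual-specificity phosphatases (DUSPs) remove the activating phosphates from ERK and its relatives JNK and p38, and each has its own preferred substrates and place in the cell. Sprouty and SPRED proteins act higher up, between the receptor and RAF. ERRFI1, also called MIG6, binds the kinase domain of the EGF receptor and blocks it. In mammary epithelium EGF receptor signalling supports growth and migration, and transcripts of these inhibitors are widely read as a record of recent ERK activity.

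Values are log2 signals per probe set as the authors normalised them, differences are knockout minus parental, and the threshold was an adjusted p of 0.05 in limma's moderated fit to all 14884 genes. Array medians lay between 4.26 and 4.35, and arrays correlated at 0.991 to 0.996 inside a group and at 0.975 to 0.979 across groups. The measured basal markers of the line, KRT5, KRT14 and EGFR (3 of the 10 listed), were well above the median gene signal of 5.49 in both groups, at group means of 8.26 or more. All 3 were higher in knockout cells, KRT14 by 2.59, KRT5 by 0.78 and EGFR by 0.69. Mean signals over these 3 were 9.35 to 9.51 on parental arrays and 10.70 to 10.88 on knockout arrays. Mean signals over 5 fibroblast markers were 4.62 to 4.86 on parental arrays and 5.22 to 5.46 on knockout arrays, with DCN (2.06) and FBLN1 (1.35) higher, DPT (-0.38) lower, LUM and THY1 not past the test, and LUM at 3.17 and 3.08. Means over 6 endothelial markers were 3.84 to 3.97 and 4.17 to 4.38, with KDR (1.69) higher and 5 not past the test, although 2 passed without parental replicate 3, without knockout replicate 2 or with the replicate block. Means over 4 immune markers were 6.09 to 6.19 and 6.01 to 6.07, with CSF1R (0.72) higher and CD14 (-0.76) and CD68 (-0.37) lower. Their part in the results below was not tested, and in bulk RNA a change in the share of cells cannot be told apart from a change in RNA per cell.

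The feedback genes split. DUSP4, ERRFI1, DUSP5 and DUSP6 rose in knockout cells and DUSP1, SPRY4 and SPRY2 fell, so that all 7 measured genes passed the test, 4 upward and 3 downward. Of all genes tested, 34.3% were called, 15.3% higher and 19.0% lower. All 7 lay above the median signal in both groups. Among the 7726 genes whose higher group mean exceeded it, calls were more common, at 55.9% (24.3% higher and 31.5% lower). A gene can enter that set through its brighter group alone. The changes were small: the differences ran from -0.34 to 0.61, 0 of the 7 reached 2-fold, which 2.81% of all genes did, and the median absolute difference of all called genes was 0.41. The number that rose was 2 without knockout replicate 3, 2 with every probe set of the table fitted and 2 with each array centred on its median, because DUSP5 and DUSP6 then missed the threshold. The groups did not overlap for 4 of the 7, DUSP4 and ERRFI1 above and DUSP1 and SPRY4 below, and those 4 also passed under all 19 other settings. Over all genes the groups were apart in 28.2%.

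**Figure D1:**
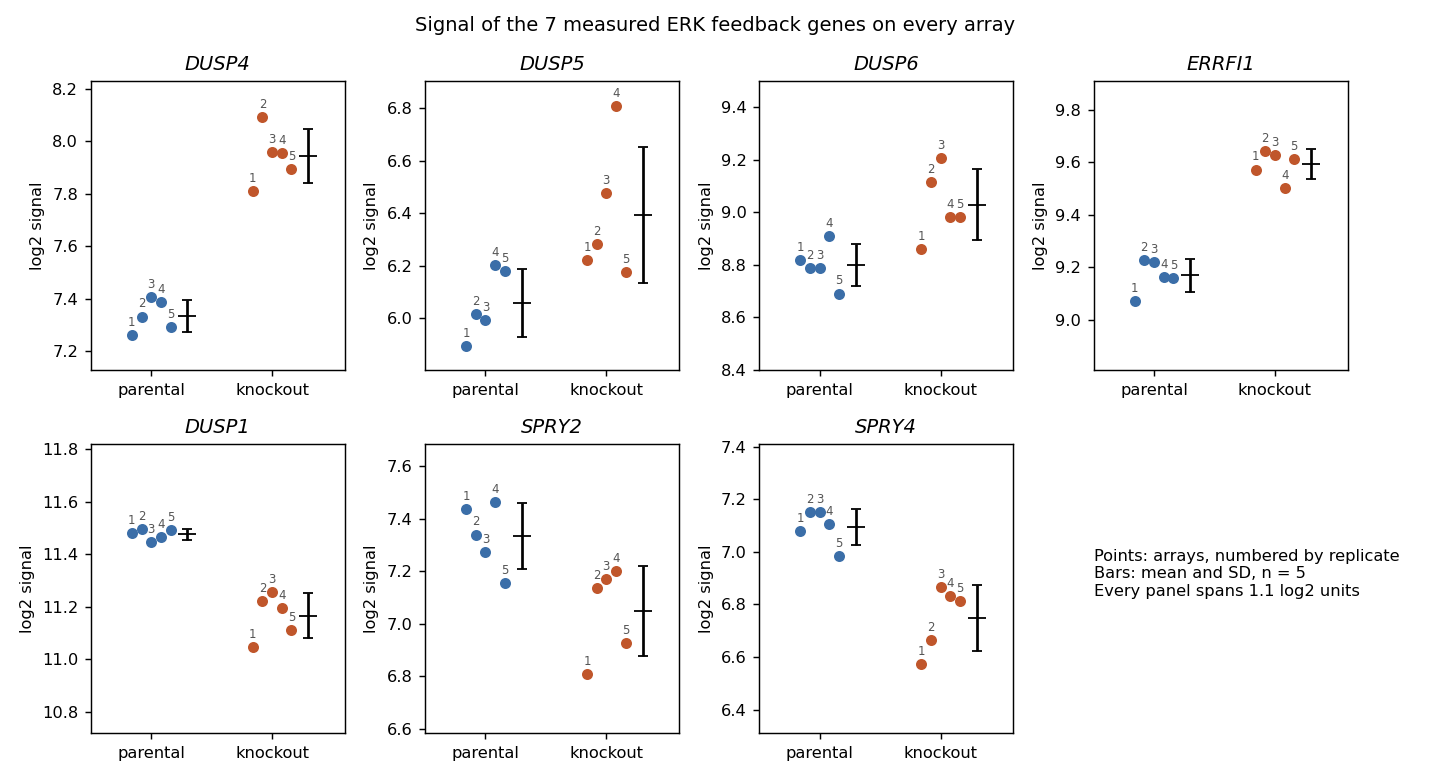
Each panel shows the log2 signal of a gene on the 5 parental and 5 knockout arrays, with points numbered by replicate and bars giving the mean and SD. All panels span the same range, so the rise of DUSP4 from 7.34 to 7.94 can be set beside the fall of SPRY2 from 7.33 to 7.05, and knockout array 1 is the lowest knockout point for DUSP1, DUSP4, DUSP6, SPRY2 and SPRY4.

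The sequence just upstream of 4 of these genes is printed because these are the genes of the list, 2 that rose and 2 that fell, with a measured change and a single window in the promoter table. They are the 250 bases before the RefSeq start in GRCh38.p14, all on the minus strand and written 5′ to 3′. DUSP6 is at chr12:89352502-89352751, ERRFI1 at chr1:8026310-8026559, DUSP1 at chr5:172771196-172771445 and SPRY4 at chr5:142324248-142324497. Capitals mark TGACG or its reverse complement, the core of the cAMP response element, and CGGAAG or its reverse complement, a site of ETS factors.
DUSP6: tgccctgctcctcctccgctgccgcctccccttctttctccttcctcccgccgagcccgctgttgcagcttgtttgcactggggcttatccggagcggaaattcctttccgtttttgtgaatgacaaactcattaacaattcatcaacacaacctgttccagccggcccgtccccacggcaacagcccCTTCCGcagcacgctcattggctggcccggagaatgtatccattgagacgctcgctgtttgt
ERRFI1: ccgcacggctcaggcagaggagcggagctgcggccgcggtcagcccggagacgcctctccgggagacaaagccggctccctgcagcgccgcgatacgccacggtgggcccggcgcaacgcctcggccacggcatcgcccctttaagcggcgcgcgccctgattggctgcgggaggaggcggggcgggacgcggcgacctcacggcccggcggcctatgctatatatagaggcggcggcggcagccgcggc
DUSP1: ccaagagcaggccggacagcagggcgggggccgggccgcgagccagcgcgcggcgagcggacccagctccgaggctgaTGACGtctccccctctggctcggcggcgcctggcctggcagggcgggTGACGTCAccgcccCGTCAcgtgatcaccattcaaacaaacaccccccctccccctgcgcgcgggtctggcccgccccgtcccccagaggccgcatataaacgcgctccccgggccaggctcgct
SPRY4: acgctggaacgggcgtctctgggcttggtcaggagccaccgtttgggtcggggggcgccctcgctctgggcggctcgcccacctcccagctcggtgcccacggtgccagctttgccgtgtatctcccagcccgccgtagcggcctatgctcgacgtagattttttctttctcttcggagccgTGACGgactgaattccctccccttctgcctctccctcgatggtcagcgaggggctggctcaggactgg

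Of the 10 listed genes 8 had a promoter window in the RefSeq table, and DUSP4 and DUSP5 were those without. The cAMP core was found at 4 places in DUSP1, 2 of which overlap to form the full element TGACGTCA 125 to 118 bases before the start. The others lie 172 to 168 and 111 to 107 bases before it, and the latter overlaps an E-box, CACGTG, at 108 to 103. SPRY4 had a single core 68 to 64 bases before its start, and SPRY2, with 3 windows, a single core in 1 of them. The ETS letters were found in DUSP6, 62 to 57 bases before its start, and in 1 window of SPRY1. Neither motif was found in the ERRFI1 window. Among 35116 windows of the same length, 21.2% held the cAMP core, 1.65% the full element, 16.5% the ETS letters and 6.34% the E-box. AP-1 sites (TGANTCA) and the CArG box, which binds SRF, were searched as well and were not found in the windows of DUSP1, DUSP6, ERRFI1, SPRY2 or SPRY4. A match is a run of letters and no binding was measured.

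DUSP4 encodes an inducible nuclear phosphatase of ERK and JNK and had the largest rise of the 7. Its signal was 7.26, 7.33, 7.41, 7.39 and 7.29 on parental arrays 1 to 5 and 7.81, 8.09, 7.96, 7.96 and 7.89 on knockout arrays 1 to 5. The highest parental array lay well under the lowest knockout array. The mean rose from 7.34 ± 0.06 to 7.94 ± 0.10 (SD, n = 5 each), a difference of 0.61 with a 95% interval of 0.47 to 0.74, or 1.52-fold (limma, adjusted p = 5.42e-06). An exact two-sided permutation test of the 10 arrays gave p = 0.00794, the smallest that 5 against 5 can reach.

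ERRFI1, the inhibitor of the EGF receptor kinase, was the other gene whose knockout arrays all stood above the parental ones. Its signal was 9.07, 9.23, 9.22, 9.16 and 9.16 on the parental arrays and 9.57, 9.64, 9.63, 9.50 and 9.61 on the knockout arrays. The arrays of each group were close together, and the gap between the groups exceeded the range within either. The difference was 0.42 (95% interval 0.31 to 0.54), 1.34-fold (limma, adjusted p = 3.72e-05).

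DUSP5 and DUSP6 moved in the same direction by less, and their groups overlapped. DUSP6 encodes the cytoplasmic phosphatase that prefers ERK, and its signal was 8.82, 8.79, 8.79, 8.91 and 8.69 on parental arrays and 8.86, 9.12, 9.21, 8.98 and 8.98 on knockout arrays. Knockout array 1 lay under parental array 4, and the other knockout arrays lay above all parental ones. The difference was 0.23 (95% interval 0.07 to 0.39), 1.17-fold (limma, adjusted p = 0.0240; exact permutation p = 0.0159). Without parental replicate 5 it was 0.20 (adjusted p = 0.0609), without knockout replicate 2 it was 0.21 (0.0601) and without knockout replicate 3 it was 0.19 (0.0589). Centring ended the call (0.20, adjusted p = 0.0727), as did fitting every probe set of the table (adjusted p = 0.0608).

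DUSP5 encodes the nuclear phosphatase that acts on ERK alone among the MAP kinases. Its brighter probe set, 16709128, read 5.90, 6.02, 5.99, 6.20 and 6.18 on parental arrays and 6.22, 6.28, 6.48, 6.81 and 6.18 on knockout arrays. Knockout array 4 was the highest, and knockout array 5 lay within the parental range. The difference was 0.34 (95% interval 0.09 to 0.58; limma, adjusted p = 0.0356; exact permutation p = 0.0238). Leaving out knockout replicate 4 gave 0.23 (adjusted p = 0.0566), knockout replicate 3 gave 0.31 (0.0742), and parental replicates 1, 2 and 3 gave 0.30 (0.0864), 0.33 (0.0718) and 0.32 (0.0734). It also missed the threshold with centring (0.31, adjusted p = 0.0614), with every probe set of the table fitted (adjusted p = 0.0843) and without moderation of the spread (adjusted p = 0.0869). The dimmer DUSP5 probe set, 16718386, read 5.15 ± 0.12 and 5.29 ± 0.15 and did not pass (0.15, adjusted p = 0.216 in limma's fit over all named probe sets), so the 2 probe sets disagree on the call and have the same sign.

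DUSP1 went the other way. It encodes an inducible nuclear phosphatase of p38, JNK and ERK that glucocorticoids and cAMP also induce. Whether the full cAMP element in its upstream window, held by 1.65% of all windows, plays a part in its change was not tested. Its signal was 11.48, 11.50, 11.45, 11.46 and 11.49 on parental arrays and 11.04, 11.22, 11.26, 11.20 and 11.11 on knockout arrays. The parental arrays were nearly equal, and every knockout array lay under them. The mean fell from 11.48 ± 0.02 to 11.17 ± 0.09 (SD, n = 5 each), a difference of -0.31 (95% interval -0.43 to -0.19), 1.24-fold lower (limma, adjusted p = 0.00058).

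Both measured Sprouty genes of the list fell. SPRY4, an inhibitor of RAS and RAF activation downstream of receptor kinases, read 7.08, 7.15, 7.15, 7.10 and 6.98 on parental arrays and 6.57, 6.66, 6.86, 6.83 and 6.81 on knockout arrays. All knockout arrays were under all parental arrays. The difference was -0.34 (95% interval -0.49 to -0.20), 1.27-fold lower (limma, adjusted p = 0.00132). SPRY2, which also binds the ubiquitin ligase CBL and so affects turnover of the EGF receptor, read 7.44, 7.34, 7.27, 7.46 and 7.15 on parental arrays and 6.81, 7.14, 7.17, 7.20 and 6.93 on knockout arrays. Parental array 5 lay inside the knockout range, so the groups overlapped. Its difference was -0.28 (95% interval -0.48 to -0.09; limma, adjusted p = 0.0236; exact permutation p = 0.0238). That call ended without parental replicate 1 (-0.26, adjusted p = 0.0587), without parental replicate 4 (-0.25, 0.0604) and without knockout replicate 5 (-0.25, 0.0580), with every probe set of the table fitted (0.0600) and without moderation of the spread (0.0518).

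**Figure D2:**
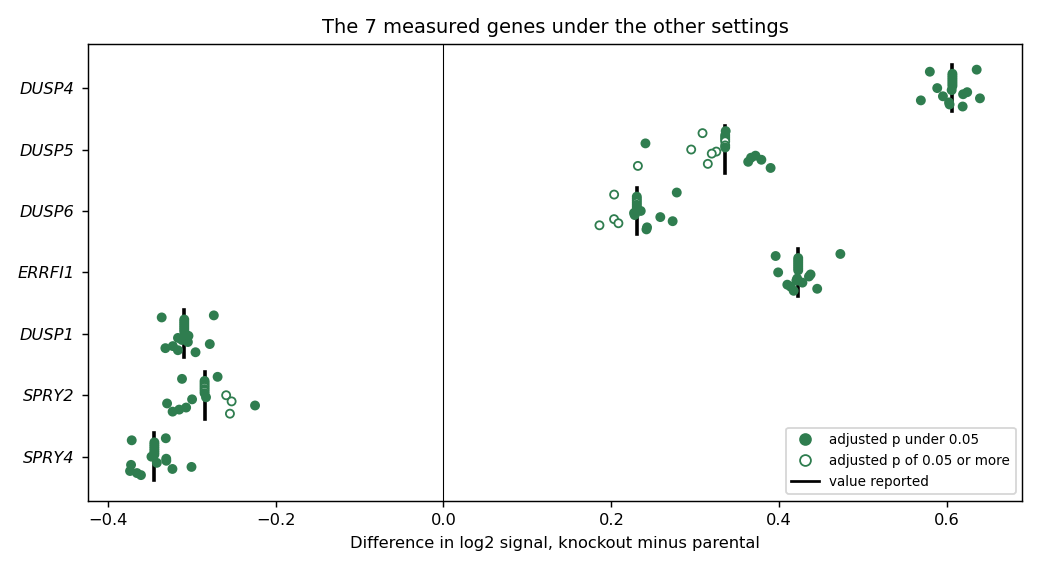
Each point is the difference (x axis, log2, knockout minus parental) of a gene under one of 19 other settings, filled where the adjusted p was under 0.05, and the black line is the value reported. DUSP4, ERRFI1, DUSP1 and SPRY4 have filled points only, while DUSP5 has 8 open points and DUSP6 and SPRY2 have 5 each, and no gene crosses 0.

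Most pairs of the 7 genes varied in the same direction from array to array within the groups, partly through knockout replicate 1. After each group's mean was removed, the deviations of 19 of the 21 pairs correlated above 0 over the 10 arrays. They were highest for DUSP6 with SPRY2 (Pearson r = 0.79), DUSP1 with SPRY2 (0.72) and DUSP1 with DUSP6 (0.71), pairs that include genes that rose and genes that fell. The 2 pairs under 0 were ERRFI1 with DUSP5 (-0.34) and with SPRY2 (-0.20), while ERRFI1 with DUSP4 gave 0.47 (0.50 without knockout replicate 1). Knockout replicate 1 was the lowest knockout array for 5 of the 7. Without it, r was 0.65, 0.46 and 0.48 for the 3 pairs and above 0 in 16 of 21. These points share arrays and normalisation, and the values are a description. The share of such pairs among other genes was not computed, so the pattern cannot be called particular to these 7. Without knockout replicate 1 the 4 rises and 3 falls were again past the test, with SPRY2 at -0.22 (limma, adjusted p = 0.0498).

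The wider family of MAP kinase phosphatases was set beside them. Of the 6 others measured, DUSP7 rose, DUSP8, DUSP16 and DUSP10 fell and DUSP2 and DUSP9 did not pass, with a median of -0.26 against 0.00 over all genes. Sorted by their known preferences, an arrangement made after the values were seen, all 3 phosphatases that act mainly on JNK and p38 fell. DUSP8 read 5.67 to 6.22 on parental and 4.83 to 5.23 on knockout arrays (difference -0.89). DUSP16 read 7.13 to 7.18 and 6.16 to 6.40 (-0.87), and DUSP10 read 7.88 to 8.12 and 7.19 to 7.58 (-0.61). For each of the 3, every knockout array lay under every parental array. Such separation, in either direction, was seen in 28.2% of all genes, and 31.5% of genes above the median signal were called lower. Whether these 3 phosphatases differ from that background was not tested. The DUSP8 window upstream of its start held the full cAMP element at 2 places, 118 to 111 and 74 to 67 bases before it. That motif was chosen after the values were seen, and 1.65% of all windows held it. DUSP7, which rose, and DUSP10 and DUSP16, which fell, held none.

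Of the 3 cytoplasmic phosphatases that prefer ERK, DUSP6 and DUSP7 rose and DUSP9 did not pass. DUSP7 read 7.57 to 7.74 on parental and 7.85 to 8.02 on knockout arrays, a difference of 0.31 (limma, adjusted p = 0.000665). DUSP9 was under the median gene signal in both groups, at 5.22 and 5.31. Of the 4 inducible nuclear phosphatases DUSP4 and DUSP5 rose, DUSP1 fell and DUSP2 was at 5.42 ± 0.12 and 5.55 ± 0.21 with a 95% interval of -0.09 to 0.33. Over all 10 phosphatases the counts were 4 higher, 4 lower and 2 not past the test.

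**Figure D3:**
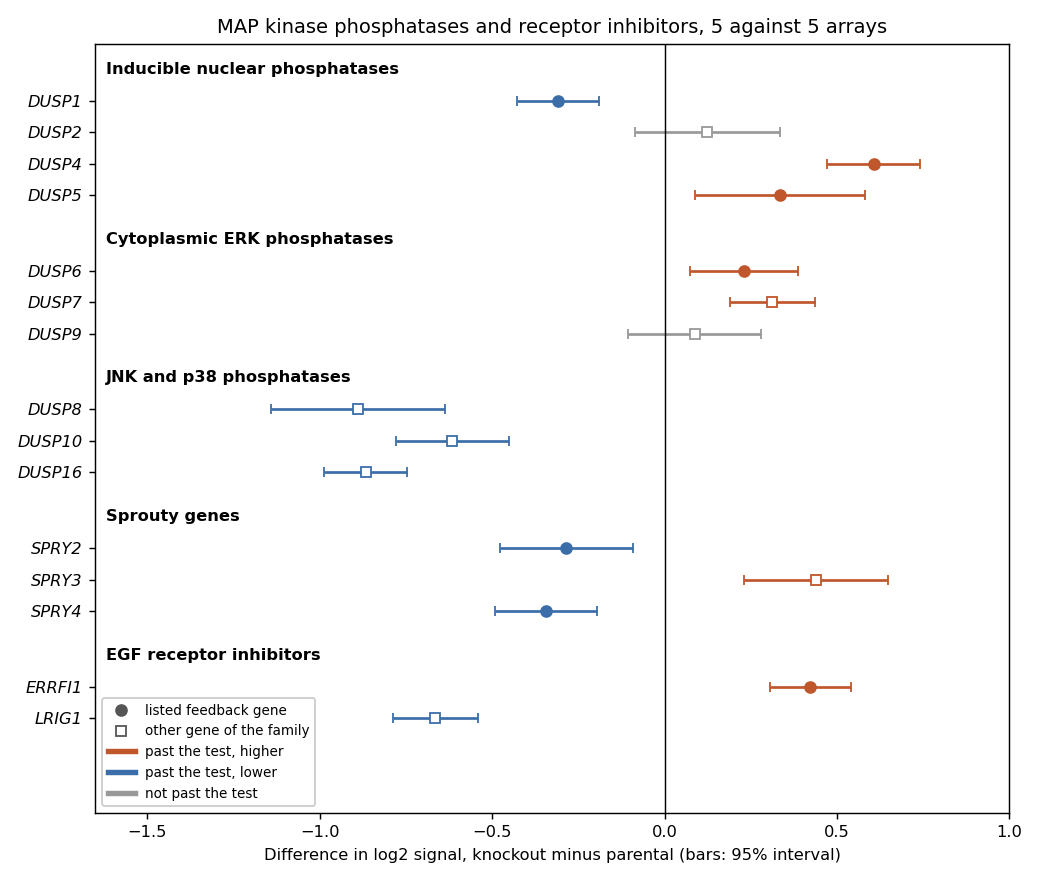
The x axis gives the difference in log2 signal, knockout minus parental, with 95% intervals, for 15 phosphatase and inhibitor genes in 5 groups, filled circles marking the listed feedback genes. DUSP8, DUSP10 and DUSP16 lie between -0.89 and -0.61, DUSP4 to DUSP7 between 0.23 and 0.61, and SPRY3 lies opposite to SPRY2 and SPRY4.

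Among other restrainers of receptor and RAS signalling, 3 of 10 measured rose, 1 fell and 6 did not pass, with a median of 0.04. SPRY3 rose by 0.44 (by its dimmer probe set, 0.60), opposite to SPRY2 and SPRY4. PEBP1 rose by 0.65 and NF1, a GTPase-activating protein for RAS, by 0.32. LRIG1, a membrane protein that promotes loss of the EGF receptor, read 6.97 to 7.19 on parental and 6.34 to 6.47 on knockout arrays (-0.66). LRIG1 and ERRFI1 both restrain the EGF receptor, and they moved in opposite directions. IL17RD, an inhibitor of FGF signalling, was at 0.11 and did not pass.

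The receptor and ligands at the head of the pathway moved both ways. Of 8 measured EGF family genes 3 rose, 2 fell and 3 did not pass (median -0.11), with 1 fall counted without the dimmest genes. EGFR, the receptor that ERRFI1 blocks, rose by 0.69, EPGN by 0.61 and EREG by 0.25, while HBEGF fell from 7.10 to 7.52 on parental arrays to 5.50 to 5.77 on knockout arrays (-1.66) and BTC, dim in both groups, fell by 0.83. Of 16 measured adaptor, RAS, RAF, MEK and ERK genes, 7 fell, 2 rose and 7 did not pass (median -0.10). SOS2, an exchange factor for RAS, fell by 0.76, SHOC2, a scaffold for RAF activation, by 0.72, MAP2K1, which encodes MEK1, by 0.62 and RRAS2 by 0.54. SHC1 (0.33) and HRAS (0.20) rose, and HRAS missed the threshold without parental replicate 1 or 3, without knockout replicate 4 or 5, with centring and with every probe set of the table fitted, where the count of rises was 1. MAPK3, which encodes ERK1, was at 7.14 and 7.15 and did not pass, with a difference whose sign turned with centring. EGFR also stands among the basal markers.

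The other transcripts that ERK induces did not follow a single direction either. Of 20 measured immediate early genes 7 fell, 4 rose and 9 did not pass (median -0.03). ATF3 fell by 1.80, EGR1 by 1.36 (by its other probe set, -1.38) and JUN by 0.70, MYC rose by 0.77, and FOS was slightly higher (0.19, limma, adjusted p = 0.0435; 0.23 by its other probe set). FOS missed the threshold in 11 of 19 other settings: without parental replicate 1, 2, 3 or 5, without knockout replicate 2, 3, 4 or 5, with centring, with every probe set of the table fitted and with the replicate block. The count of rises among these 20 genes was 2 without parental replicate 3 or 5, without knockout replicate 2, 4 or 5, with centring, with every probe set of the table fitted and with the replicate block. Of 13 measured delayed output genes 5 fell, 4 rose and 4 did not pass (median -0.17). ETV5, an ETS factor that ERK and FGF signals induce, read 6.27 to 6.58 on parental and 5.44 to 5.82 on knockout arrays (-0.69), while its relative ETV4 rose by 0.24. CCND1, the cyclin that drives entry into the cell cycle, rose by 1.25, and UPP1, a pyrimidine salvage enzyme, fell by 2.64. HMGA2 rose by 0.56, but by 0.36 without knockout replicate 5, which was the highest knockout array (limma, adjusted p = 0.00117). PHLDA1 was not analysed here.

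The listed ETS factors, SRF and its coactivators moved both ways. Of 7 measured, 4 fell, 1 rose and 2 did not pass (median -0.22), and the ETS factors ETV4, which rose, and ETV5, which fell, were counted among the delayed output genes. ETS1, an activating factor, fell by 1.09, ETS2, another, by 0.98 and ETV6, a repressor, by 0.27. MRTFB, a coactivator of SRF, fell by 0.22, while ERF, a repressor that ERK inactivates, rose by 0.44. SRF was at 8.13 and 8.10 and did not pass, and its sign turned with quantile normalisation.

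DUSP1 and ERRFI1 are also known targets of the glucocorticoid receptor, and DUSP1 of CREB. Of 9 measured glucocorticoid targets outside the list, 3 rose, 0 fell by the limma test and 6 did not pass (median 0.13). FKBP5 rose by 0.20, SGK1 by 1.00 and the transcription factor gene ZBTB16 by 0.65. PER1, at -0.18 (adjusted p = 0.0563), passed in the settings without the dimmest genes, with an intensity trend and without knockout replicate 4, where the count of falls was 1. Of 7 measured cAMP and CREB genes, regulators and targets together, 3 fell, 1 rose and 3 did not pass (median -0.18). CREM fell by 0.84, and the regulators CREB1 and CRTC2, a CREB coactivator, by 0.46 and 0.32. SIK1, listed as a response gene and also a kinase that restrains such coactivators, rose by 0.36. Beside both lists, 15.3% of all genes were called higher and 19.0% lower (24.3% and 31.5% above the median signal). Whether glucocorticoid or cAMP signalling plays a part in the differences of DUSP1 or ERRFI1 was not tested. TSC22D3 was not analysed here.

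**Figure D4:**
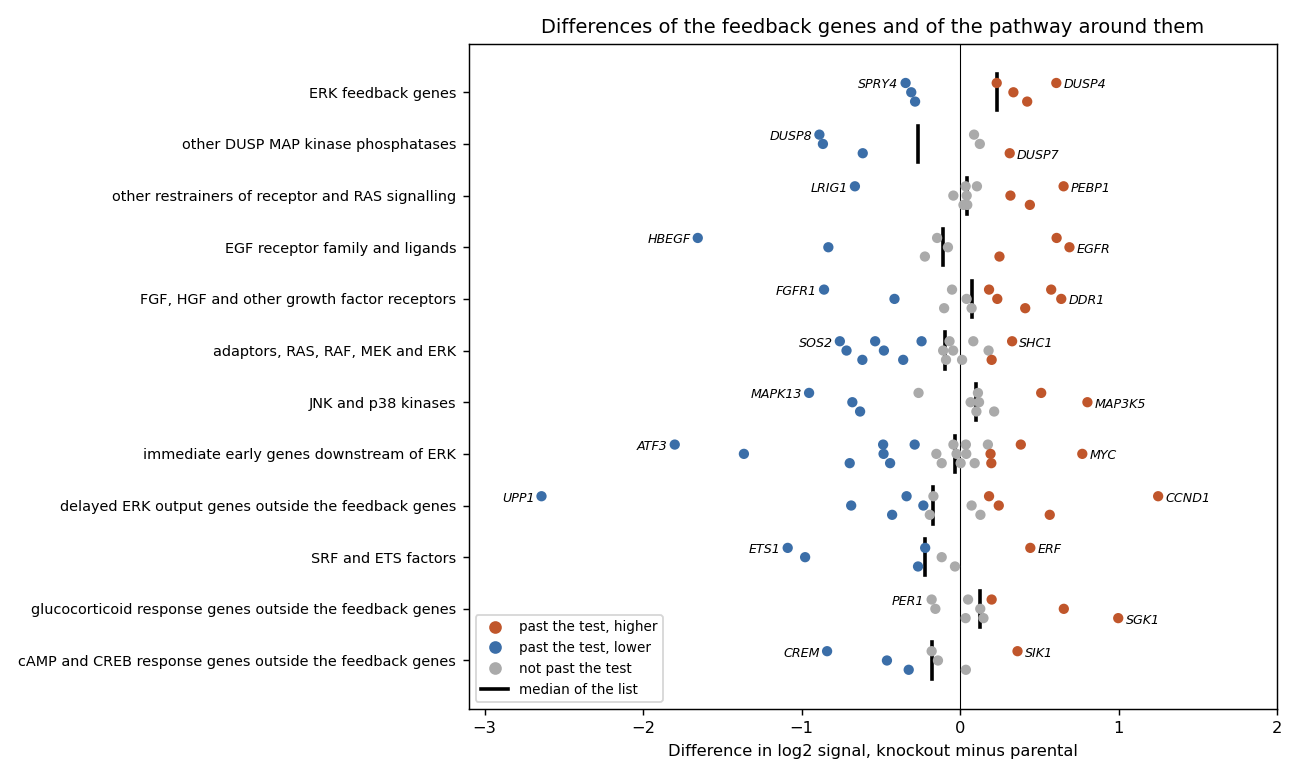
Points are genes, placed by their difference in log2 signal (knockout minus parental) within 12 lists, coloured by the outcome of the test, with the median of each list as a black bar and its extreme genes named. The feedback genes span -0.34 to 0.61, a narrower range than that of the delayed output genes, from UPP1 at -2.64 to CCND1 at 1.25.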

How the data were processed

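The members and gene lists were chosen with earlier results of these data known, and the motifs were chosen after the values were seen. Deposited values were log2 signals per probe set, already summarised and normalised by the authors with Affymetrix Expression Console and Partek 6.6 per the submitters' processing notes, while the summarisation method is not given in the sources used here. Labelled RNA was made from 1 μg of total RNA, per the labels' protocols. Of 53617 probe sets, 16098 had 1 gene symbol, 0 had several and 37519 were unnamed here. Symbols were checked by Entrez identifier against RefSeq GRCh38.p14, and the brightest probe set stood for each of 14884 genes. No further normalisation or filter was applied. Groups came from the sample titles. The 5 knockout and 5 parental arrays were compared with lmFit and eBayes (limma 3.58.1, R 4.3.3), two-sided, with Benjamini-Hochberg adjustment over all genes. The fit was tested on simulated arrays for the same comparison, with 14884 genes. Only 100 genes were moved at each size, all of them above the median signal. The fit recovered 41% of genes moved by 0.25, 64% at 0.35 and 89% at 0.5. In the data 5108 genes were called, which makes the adjustment less strict, so these rates do not carry over to the real comparison. For arrays, their number limits the precision: the median standard error of a difference was 0.08. Exact permutation tests, tables and plots used Python 3.11.15, scipy 1.17.1, pandas 2.3.3 and matplotlib 3.10.9. Named besides the members were up to 4 genes of each list that passed with groups apart, ranked by absolute difference, and FKBP5, FOS, EGR1, ETV4, ETV5, EGFR and HBEGF (PHLDA1 and TSC22D3 would have been). EGFR, EPHA2, EPHA4, PER1 and FOSB stand in 2 lists each. The phosphatase classes and genes named beyond that rule were chosen after their values were seen. Also named were the 3 genes most like the members with the largest rise and fall. The alternatives were quantile normalisation, centring, a filter on dim genes, an intensity trend, all named probe sets and all probe sets of the table. Others were the mean of a gene's probe sets, no moderation of the spread, the replicate block, and leaving out each array. The filter kept genes whose higher group mean exceeded the median signal.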

Additional observations from a re-analysis of the deposited data

Results flagged for a closer look

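No feedback gene had an array standing clear of its group. Among 148 groups of 5 arrays examined for the named genes, 11 held an array whose gap to its neighbour exceeded 0.71 of the group's range, and chance gives about 1 in 20. Knockout replicate 4 was the high array for FGFR1 (4.39 against 4.02 to 4.11, ratio 0.758), MAPK13 (6.09 against 5.75 to 5.84, ratio 0.741), RRAS2 (6.46 against 6.25 to 6.31, ratio 0.724) and IL17RD (5.42 against 5.14 to 5.18, ratio 0.86). Knockout replicate 5 was high for HMGA2 (7.46 against 6.29 to 6.54, ratio 0.785), and knockout replicate 1 was low for SIK1 (8.41 against 8.56 to 8.62, ratio 0.71) and PER1 (8.41 against 8.68 to 8.75, ratio 0.778). Parental replicate 4 was low for MAPK13 (6.61 against 6.81 to 6.88, ratio 0.754) and high for CRTC2 (7.87 against 7.59 to 7.65, ratio 0.762). Parental replicate 2 was high for CREM (5.79 against 5.64 to 5.67, ratio 0.774), and parental replicate 1 was low for RRAS2 (6.67 against 6.86 to 6.94, ratio 0.711).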

How the results depend on the processing

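No difference of the 7 feedback genes changed sign in any of the 19 alternatives. DUSP1 (-0.34 to -0.27), DUSP4 (0.57 to 0.64), SPRY4 (-0.37 to -0.30) and ERRFI1 (0.40 to 0.47) passed in all of them. Centring on the array median ended the calls of DUSP5 (0.31) and DUSP6 (0.20), fitting every probe set of the table those of DUSP5 (0.34), DUSP6 (0.23) and SPRY2 (-0.28), and leaving the spread unmoderated those of DUSP5 (0.34) and SPRY2 (-0.28). The first 2 of these settings left 2 members higher. With an array left out, the differences ran from 0.23 to 0.39 for DUSP5, from 0.19 to 0.27 for DUSP6 and from -0.33 to -0.22 for SPRY2, with 2 to 4 members higher and 2 to 3 lower, and 4705 to 5128 genes past the test. The other alternatives gave 4299 to 5248. The cause was not tested. Among other named genes, MAPK3 changed sign with centring (-0.0151) and with an array left out (-0.0174, without knockout replicate 4, to 0.0477), and SRF with quantile normalisation (0.0034), and none of these passed in either sign. HMGA2 missed the threshold with every probe set of the table fitted and without moderation. Arrays with the same number showed no clear pairing: their deviations correlated at -0.04 to 0.19, and 3 of 10 samples correlated best with their own number. Such values cannot exclude a weak pairing. With the replicate block 4972 genes passed, with 4 members higher and 3 lower, as without it.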

Other observations

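Receptors for other growth factors and the kinases parallel to ERK gave values that belong to no group above. Of 11 measured receptors 5 rose and 2 fell (3 rose with centring, 1 fell without the dimmest genes): DDR1, a collagen receptor, rose by 0.64 and FGFR3 by 0.57, while MET, the HGF receptor, fell by 0.41 and FGFR1, dim in both groups, by 0.86. Of 11 measured JNK and p38 pathway genes 2 rose, 3 fell and 6 did not pass. MAP3K5, an upstream kinase of stress signalling, rose by 0.80 and MAP2K3, a kinase that activates p38, by 0.51, and MAPK13, a p38 isoform, fell by 0.95, MAPK9, which encodes JNK2, by 0.68 and MAPKAPK2, a p38 substrate, by 0.63.

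Genes varying like DUSP4 within groups were sought over 10 arrays, among 7442 genes whose mean over all arrays exceeded the median signal. The deviations most like those of DUSP4 were those of POC1B-GALNT4 (Pearson r = 0.95), TMEM181 (0.94) and DMPK (0.93). None of these 3 passed the limma test, at differences of -0.14, -0.08 and -0.22. Those most like SPRY4 were N4BP1 (0.97), MICALL1 (0.96) and DDX23 (0.96), at differences of -0.0028, -0.47 and 0.26. These correlations share arrays and normalisation and are given as a description. None of the 7 measured genes lies on chromosome 11, which carries H2AX. Only a few other named genes, picked by hand, were looked up, and of these DUSP8 (-0.89), ETS1 (-1.09) and CCND1 (1.25) lie there. The chromosome arm was not looked up, and these genes do not stand for all named genes on that chromosome. Whether location plays a part in any of these differences was not tested.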
